A study of Mus musculus with 4 samples.

Results

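To ask whether cells with a high mitochondrial membrane potential (MMP) carry a different keratin program from cells with a low one, the transcripts of 10 keratin genes were examined in 4T1 cells. The genes were chosen by name, with earlier results of these data known. *Krt7*, *Krt8*, *Krt18* and *Krt19* were taken as luminal keratins, and *Krt5*, *Krt6a*, *Krt14*, *Krt15*, *Krt17* and *Krt80* as basal or stress keratins. Of these 10, 7 had a row in the analysed table of 20197 genes, namely all 4 luminal and 3 of the 6 basal or stress genes. *Krt5*, *Krt6a* and *Krt15* had no row, and no value is given for them. All 7 genes with a row had a mean of at least 10 normalized reads, so none was near the lower end of the table.

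4T1 is an established line from a mouse mammary carcinoma that metastasizes to the lung, here of wild-type (WT) genotype. All 4 libraries came from cultured cells stained with 20 nM MitoSpy Red. This dye is taken up by mitochondria in proportion to their membrane potential. The brightest 5% (high MMP, 2 libraries) and the dimmest 5% (low MMP, 2 libraries) were sorted, and RNA was taken from 100000 cells per library. Because the libraries pool sorted cells, fewer cells with a keratin and less keratin RNA per cell cannot be told apart.

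Keratins are the intermediate filament proteins of epithelial cells. Each filament is built from pairs of a type I and a type II keratin, and a cell type is often recognised by the pair it uses. In the mammary gland, luminal cells use *Krt8* with *Krt18*, together with *Krt7* and *Krt19*, whereas basal and myoepithelial cells use *Krt5* with *Krt14*. *Krt6a*, *Krt16* and *Krt17* are keratins of wounded or stressed epidermis. *Krt80* is a type II keratin of differentiating epithelia and is not a defining marker of basal cells, although it is counted in the basal or stress class here. In mouse the type I genes are clustered on chromosome 11 and the type II genes on chromosome 15, except that the type I gene *Krt18* lies beside *Krt8* in the type II cluster.

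The 7 genes showed 2 different patterns across the libraries. The 4 luminal keratins were abundant, followed each other from library to library, and had overlapping values in high and low MMP cells, summing to 47907 ± 12960 normalized reads under high MMP (SD, n = 2) and 48783 ± 5321 under low MMP (SD, n = 2). *Krt14*, *Krt17* and *Krt80* had higher values in both high MMP libraries than in both low MMP libraries, by 1.25-fold to 1.37-fold. None of the 7 genes passed an adjusted p of 0.05 in limma, the test fitted over all genes, where 0% of the 20197 genes passed. A normalized read is a read after scaling each library to 20000000 reads. Log2 differences are high minus low MMP, taken after adding 1 to each value, with the standard error (SE) of limma.

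The libraries held 22591970 to 26395015 reads assigned to genes, as recovered from the table. Replicates differed by more than sampling noise in both groups, and the high MMP libraries differed more from each other (chi-square of 47.2 per gene) than the low MMP libraries did (9.83 per gene). The label of an epithelial line was checked against its markers. *Epcam* had 3647 to 4619 and *Cdh1*, which encodes E-cadherin, 3903 to 5426 normalized reads per library. *Trp63*, a defining transcription factor of basal cells, had 0.885 to 3.79. Of 5 immune cell markers 3 had a row, with a sum of 60.6 and 143 normalized reads in the high and 151 and 96.5 in the low MMP libraries, nearly all of it *Cd68*, a lysosomal protein of macrophages (59.9 to 149). The leukocyte marker *Ptprc* had at most 1.77. Of 4 endothelial markers 2 had a row, with a sum of 1.74 to 6.20, and of 4 adipocyte markers 2, with a sum of 1.74 to 3.35. The part of such cells in the keratin values was not tested.

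The sequences upstream of *Krt7*, *Krt8* and *Krt18* are shown because these are the most abundant keratins of the line and, as described next, varied together. They are RefSeq promoter windows on GRCm38.p6, restricted to the bases upstream of both the RefSeq start and the start of the principal GENCODE transcript, 5′ to 3′ in the direction of the gene. Other *Krt7* transcripts are annotated further upstream, so the *Krt7* window lies inside the annotated span of that gene. Both strands were searched for the TATA box with the letters TATAAA. The same search was made for the GC box bound by Sp1, spelled GGGCGG, and for the AP-1 site, spelled TGACTCA. The AP-2 site was spelled GCCNNNGGC, and capitals mark all matches. The window of *Krt7* covers chr15:101412153-101412401 on the plus strand, that of *Krt8* chr15:102004483-102004592 on the minus strand, and that of *Krt18* chr15:102027966-102028179 on the plus strand.
Krt7: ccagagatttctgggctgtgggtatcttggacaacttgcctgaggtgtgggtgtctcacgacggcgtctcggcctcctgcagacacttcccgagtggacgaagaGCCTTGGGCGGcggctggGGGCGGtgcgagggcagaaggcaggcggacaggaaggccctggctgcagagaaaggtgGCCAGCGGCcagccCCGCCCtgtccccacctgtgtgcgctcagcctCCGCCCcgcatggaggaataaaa
Krt8: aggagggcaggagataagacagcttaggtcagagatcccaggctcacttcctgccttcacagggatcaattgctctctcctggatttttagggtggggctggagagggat
Krt18: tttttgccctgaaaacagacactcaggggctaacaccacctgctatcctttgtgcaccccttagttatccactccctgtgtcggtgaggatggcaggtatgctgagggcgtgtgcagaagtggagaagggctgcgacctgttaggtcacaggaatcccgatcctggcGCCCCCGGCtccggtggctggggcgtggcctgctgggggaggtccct

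The full windows, from 250 bases before to 50 bases after the RefSeq start, differed in these matches. That of *Krt7* held 4 GC boxes and 2 AP-2 matches, one of which overlaps a GC box. The window of *Krt18* held 1 AP-2 match, and that of *Krt8* held overlapping TATA matches on both strands at the RefSeq start, outside the printed part. GC boxes were present in 35.9%, AP-2 matches in 16.7%, TATA boxes in 13.6% and AP-1 matches in 5.19% of the 32544 distinct windows of the same length. None of the 3 windows held an AP-1 match. Of the other members, *Krt5* has a window but no value, and the RefSeq start of the *Krt14* window lies 1518 bases downstream of that of the principal GENCODE transcript, so it is not shown. *Krt6a*, *Krt15*, *Krt17*, *Krt19* and *Krt80* have none in the table used.

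Among the luminal keratins, *Krt8* (chromosome 15, 101996698 to 102004482, 9 exons) encodes the type II keratin of simple epithelia. It had 19554 normalized reads in high MMP 1, 13147 in high MMP 2, 15446 in low MMP 1 and 18985 in low MMP 2. The highest and the lowest value were thus both from high MMP libraries. Between the groups the log2 difference was -0.09 (SE 0.25, 95% interval -0.76 to 0.57), with an adjusted p of 0.964 in limma. The difference between the high MMP replicates, 0.57, was larger than that between the groups.

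*Krt18* (chromosome 15, 102028180 to 102032027, 7 exons), its type I partner, had 19276 normalized reads in high MMP 1, 13139 in high MMP 2, 15781 in low MMP 1 and 18021 in low MMP 2. Its libraries stood in the same order as those of *Krt8*, from high MMP 1 through low MMP 2 and low MMP 1 to high MMP 2. The log2 difference was -0.08 (SE 0.23, 95% interval -0.70 to 0.53, adjusted p of 0.968 in limma). Within each library the partners were close to equal in reads, with a *Krt8* to *Krt18* ratio of 1.01, 1.00, 0.979 and 1.05 in high MMP 1, high MMP 2, low MMP 1 and low MMP 2. The ratio varied 1.08-fold over the 4 libraries, whereas *Krt8* itself varied 1.49-fold.

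*Krt7* (chromosome 15, 101411043 to 101430313, 9 exons), a type II keratin of ductal and glandular epithelia, had 16813 normalized reads in high MMP 1, 11404 in high MMP 2, 12659 in low MMP 1 and 14264 in low MMP 2. *Krt19* (chromosome 11, 100140810 to 100148665, 6 exons), a small type I keratin that lacks most of the tail domain, had 1429, 1054, 1135 and 1276 in the same libraries. Both again had their highest value in high MMP 1 and their lowest in high MMP 2. The log2 difference was 0.04 for *Krt7* (SE 0.22, 95% interval -0.57 to 0.65) and 0.03 for *Krt19* (SE 0.18, 95% interval -0.45 to 0.51), both with an adjusted p of 0.994 in limma. Relative to *Krt8*, *Krt7* was slightly higher in high MMP cells, as was *Krt19* relative to *Krt18*. The ratio of *Krt7* to *Krt8* was 0.864 ± 0.0054 under high and 0.786 ± 0.048 under low MMP (SD, n = 2 per group), and that of *Krt19* to *Krt18* was 0.0772 ± 0.0043 and 0.0714 ± 0.00081. Neither ratio overlapped between the groups. They were compared after the values were seen and carry no test, and the share of gene pairs without overlap was not counted. *Krt19* and *Krt18* are both type I, and no ratio of *Krt19* to the type II *Krt8* was taken. The lack of overlap need not hold with another denominator.

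All 4 luminal keratins had the same order of libraries. This order was found in 8.16% of all genes, and in 9.87% of those with a mean of at least 10. In all 4 the value was higher in high than in low MMP cells for the libraries numbered 1 (by 0.29 to 0.41 on the log2 scale) and lower for those numbered 2 (by -0.53 to -0.28). That combination was found in 26.4% of all genes. The labels do not say that a number marks a shared sort. With the numbers crossed, the differences were 0.04 to 0.24 for high MMP 1 against low MMP 2 and -0.26 to -0.11 for high MMP 2 against low MMP 1, smaller but again of opposite sign. The high MMP libraries were therefore not alike in their luminal keratins, and neither direction can be given for the groups.

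**Figure D1:**
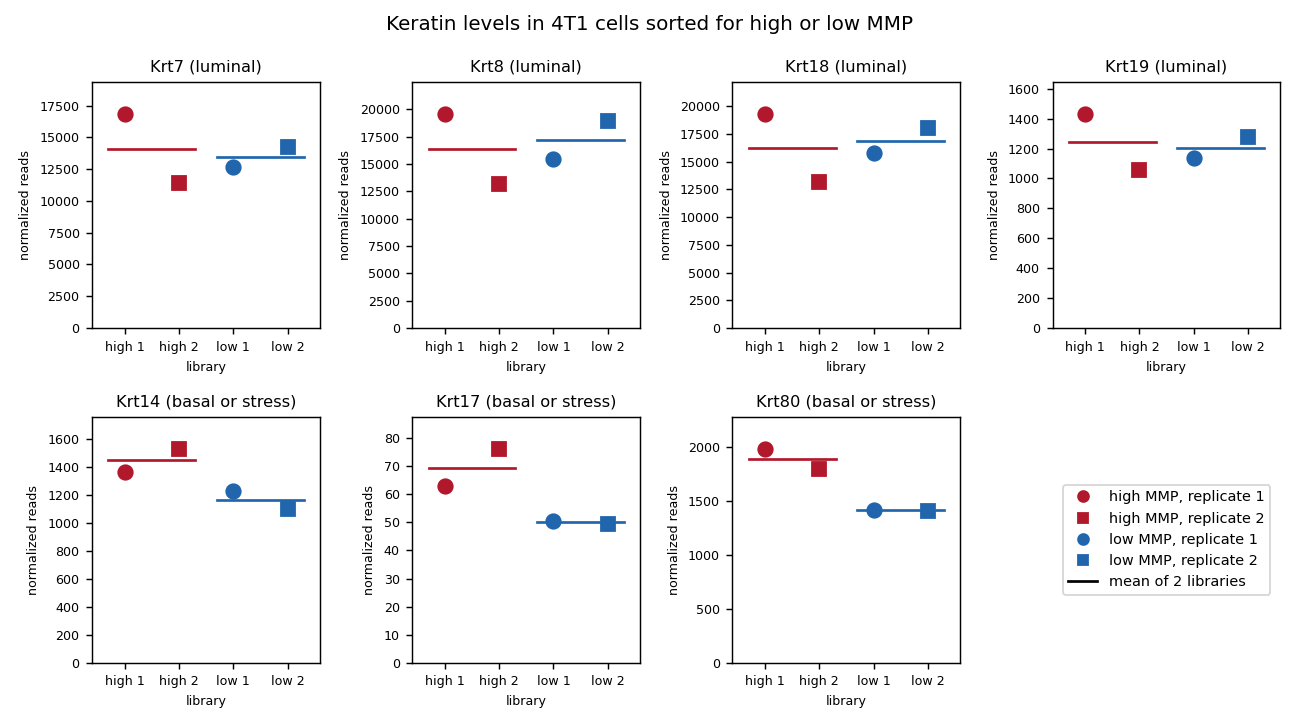
Normalized reads (vertical axes, linear and from 0, scaled separately per gene) of the 7 keratins in each library (horizontal axes). Points are single libraries and lines are means of 2 libraries. The luminal keratins in the upper row have their highest value in high MMP 1 and their lowest in high MMP 2, whereas for *Krt14*, *Krt17* and *Krt80* in the lower row both high MMP points lie above both low MMP points.

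Of the basal or stress keratins, *Krt14* (chromosome 11, 100203162 to 100207548, 8 exons) encodes the type I keratin of basal epithelial cells. It had 1368 normalized reads in high MMP 1, 1529 in high MMP 2, 1226 in low MMP 1 and 1100 in low MMP 2. Both high MMP libraries lay above both low MMP libraries. The log2 difference was 0.32 (SE 0.10, 95% interval 0.03 to 0.60), 0.16 for the libraries numbered 1 and 0.47 for those numbered 2. The unadjusted p was 0.0364 and the adjusted p 0.472 in limma, so the gene was not called.

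*Krt80* (chromosome 15, 101347444 to 101370162, 9 exons) had 1984 normalized reads in high MMP 1, 1798 in high MMP 2, 1420 in low MMP 1 and 1408 in low MMP 2. The low MMP libraries differed by 0.01 on the log2 scale and the high MMP libraries by 0.14, so the gap between the groups was larger than the spread within either. The log2 difference was 0.42 (SE 0.09, 95% interval 0.18 to 0.65), or 1.34-fold. *Krt80* had the smallest unadjusted p of the 7 genes, 0.00732 in limma, but its adjusted p of 0.472 in limma did not pass. On the recovered reads its adjusted p was 0.689 in edgeR and 0.181 in DESeq2.

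*Krt17* (chromosome 11, 100256217 to 100261029, 8 exons), a type I keratin induced in wounded and proliferating epidermis, was far less abundant, with 62.9 normalized reads in high MMP 1, 76.2 in high MMP 2, 50.6 in low MMP 1 and 49.6 in low MMP 2. These values rest on 83, 91, 58 and 56 reads. The groups did not overlap, and the log2 difference was 0.46 (SE 0.19, 95% interval -0.06 to 0.98, adjusted p of 0.563 in limma).

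Thus 3 of the 7 genes, all of the basal or stress class, had both high MMP libraries above both low MMP libraries, against 13.5% of all genes and 14.3% of those with a mean of at least 10. None of the 7 had both high MMP libraries below, which was seen in 24.5% of all genes and 23.7% of those with a mean of at least 10. At an unadjusted p under 0.05, limma found 2 of the 7 (*Krt14* and *Krt80*, both higher in high MMP cells) against 9.96% of all genes (3.95% higher), and these were also the 2 found by edgeR (7.05% of all genes) and by DESeq2 (3.27%). Over all genes with adjusted p-values, edgeR called 0% and DESeq2 0.985%, none of them a keratin of the list. The median difference was 0.04 over the 7 keratins and -0.04 over all genes. Since the keratins were chosen with earlier results of these data known, these comparisons with all genes are a description only.

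**Figure D2:**
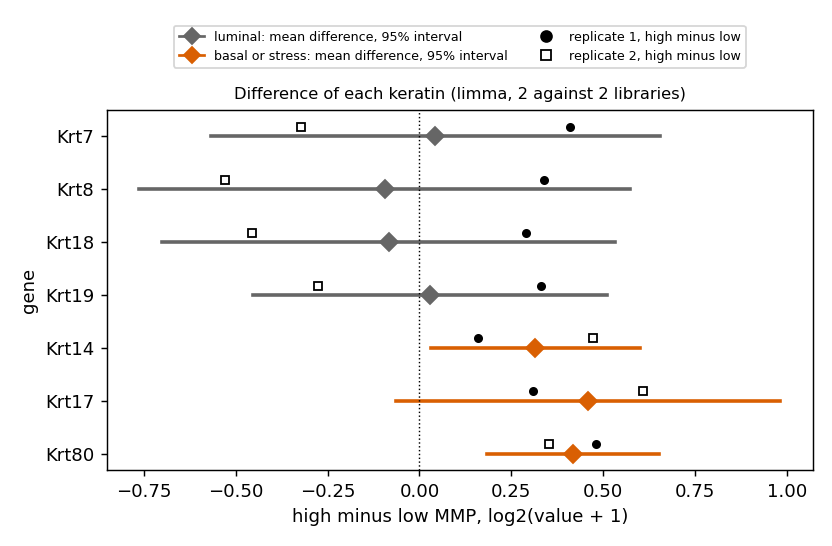
Log2 difference between high and low MMP cells, with 1 added to each value (horizontal axis) for each keratin (vertical axis). Diamonds are mean differences and bars are 95% intervals from limma, with the differences of the same-numbered libraries as small symbols. The intervals of *Krt14* (0.03 to 0.60) and *Krt80* (0.18 to 0.65) do not include 0, and the same-numbered differences of the luminal keratins lie on opposite sides of 0.

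Taken as classes, the luminal sum was 57071 normalized reads in high MMP 1, 38743 in high MMP 2, 45021 in low MMP 1 and 52546 in low MMP 2. The basal or stress sum of *Krt14*, *Krt17* and *Krt80* was 3416, 3403, 2696 and 2558 in these libraries. The second sum was nearly equal within each group while the first was not. However, *Krt14* was lower and *Krt80* higher in high MMP 1 than in high MMP 2. Their SDs under high MMP were 113 and 132 (n = 2), and these opposite differences largely cancelled in the sum. The basal or stress sum averaged 3410 ± 8.78 under high MMP (SD, n = 2) and 2627 ± 97.5 under low MMP (SD, n = 2). This is a log2 difference of 0.38, to which *Krt80* and *Krt14* contributed almost all reads.

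The ratio of the luminal to the basal or stress sum, which does not depend on library scaling, was 16.7 in high MMP 1, 11.4 in high MMP 2, 16.7 in low MMP 1 and 20.5 in low MMP 2. High MMP 1 and low MMP 1 did not differ, and the groups were not separated. The mean log2 difference was -0.43. It was 0.00 for the libraries numbered 1 and -0.85 for those numbered 2, but -0.30 and -0.55 with the numbers crossed, so how it divides between the libraries depends on the numbering. Luminal keratins made up 94.4% of the reads of the 7 genes in high MMP 1 (Wilson 95% interval 94.2% to 94.5%), 91.9% in high MMP 2 (91.7% to 92.2%), 94.4% in low MMP 1 (94.2% to 94.5%) and 95.4% in low MMP 2 (95.2% to 95.5%). These intervals cover counting error only. By transcripts, the line was thus mainly luminal in keratin type in both groups, in high MMP 2 as well.

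**Figure D3:**
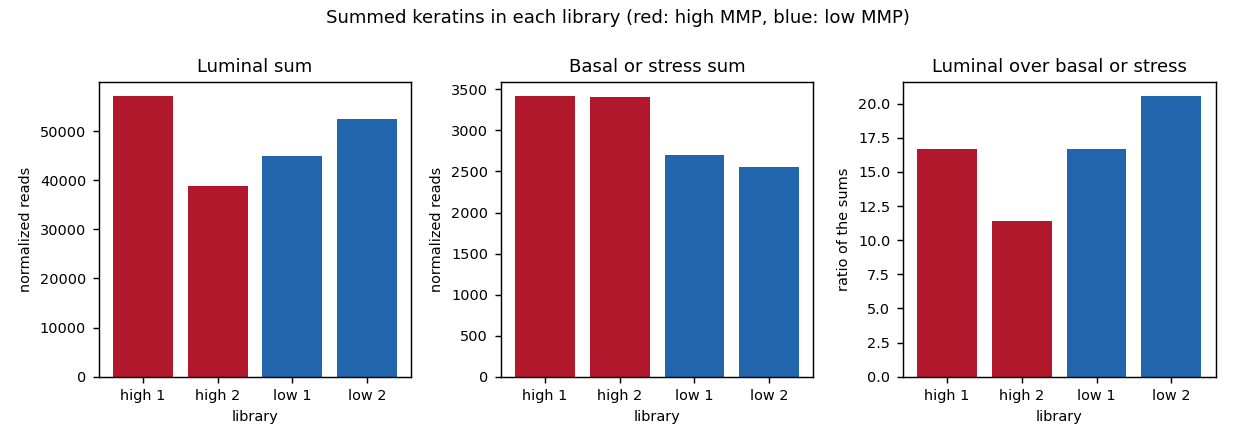
Sum of the 4 luminal keratins, sum of the 3 basal or stress keratins (both in normalized reads), and their ratio, in each library (bars, from 0). The basal or stress sum reaches 3403 and 3416 for high MMP but 2558 and 2696 for low MMP, while the luminal sum is highest in high MMP 1 and lowest in high MMP 2.

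For comparison between genes, levels were divided by the length of the principal GENCODE transcript and are given as normalized reads per kilobase, as the mean of the 4 libraries. *Krt18* was highest at 11520 (9143 to 13410 over the libraries), followed by *Krt8* at 8571 (6714 to 9987), *Krt7* at 3367 (2786 to 4107), *Krt19* at 776 (669 to 907), *Krt14* at 769 (648 to 900), *Krt80* at 539 (459 to 647) and *Krt17* at 38.6 (32.0 to 49.1). *Krt19* and *Krt14* did not differ beyond their spread, and *Krt14* changed places with *Krt19* in high MMP 2 and low MMP 1. The ranges of *Krt18* and *Krt8* overlapped, although *Krt18* was higher per kilobase in every library. The *Krt7* transcript is annotated with 4094 bases, longer than those of the other members, so its place depends on that length. Summed per kilobase, the type I members (*Krt14*, *Krt17*, *Krt18* and *Krt19*) stood to the type II members (*Krt7*, *Krt8* and *Krt80*) at 1.03, 1.07, 1.09 and 1.03 in high MMP 1, high MMP 2, low MMP 1 and low MMP 2. With these lengths the types were close to balanced in every library, and their ratio varied 1.06-fold over the libraries. The balance also depends on the annotated length of *Krt7*, since a shorter transcript would raise the type II sum.

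Related genes can share reads, and how the counting treated such reads is not stated. Of the possible 75-base stretches of the *Krt8* transcript, 22.0% also occur in the pseudogene *Krt8-ps*, and 5.91% of those of *Krt14* occur in *Krt16*. Of the stretches of *Krt16*, 28.9% occur in *Gm11597* or *Krt14*. The other 5 members with a row shared none with transcripts of another gene. *Krt8-ps* had 83.4 normalized reads in high MMP 1, 55.2 in high MMP 2, 66.2 in low MMP 1 and 80.6 in low MMP 2, in the same order as *Krt8*. The value of *Krt8-ps* is therefore uncertain. The level of *Krt8* is uncertain too, as reads from its shared stretches may have been left out. Its ratio to *Krt18* and their order per kilobase carry the same uncertainty.

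Of 45 other keratin genes, 10 had a row, and none was called in limma, edgeR or DESeq2. At an unadjusted p under 0.05 in limma 1 of these 10 was found, *Krt88*, a share near the 9.96% of all genes. Only *Krt10* and *Krt16* had a mean of at least 10. *Krt10*, a type I keratin of suprabasal epidermis, had 53.0, 47.7, 65.4 and 49.6 normalized reads in high MMP 1, high MMP 2, low MMP 1 and low MMP 2 (log2 difference -0.18, SE 0.23, adjusted p of 0.886 in limma). *Krt16*, the type I stress keratin that pairs with *Krt6a*, had 56.8, 20.1, 22.7 and 65.5. It followed the order of neither *Krt14* nor *Krt17* but was high in high MMP 1 and low MMP 2, where the luminal keratins were also high, and its log2 difference was -0.18 (SE 0.74, adjusted p of 0.990 in limma). Because of the shared stretches its values are uncertain. *Krt42* had 0.872 to 10.6 normalized reads. The type II genes *Krt87* and *Krt88* had at most 3.54, and for both the 2 high MMP libraries lay below both low MMP libraries (24.5% of all genes). This rests on 2, 1, 3 and 3 reads for *Krt87* and on 2, 0, 4 and 4 reads for *Krt88*.

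**Figure D4:**
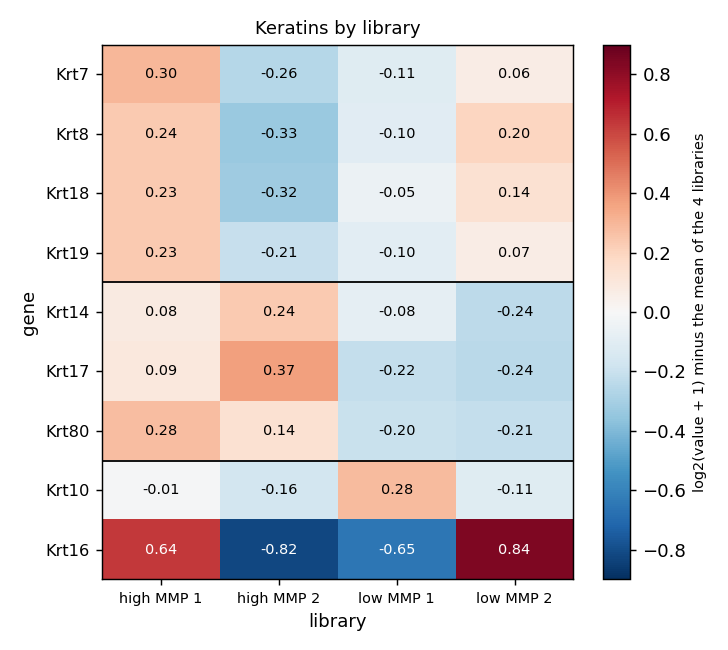
Each cell gives log2(value + 1) of a gene (rows) in a library (columns) minus the mean of the 4 libraries, with red above and blue below the mean. Luminal keratins (upper block) are highest in high MMP 1 and lowest in high MMP 2, *Krt14*, *Krt17* and *Krt80* (middle block) are above their mean in both high MMP libraries, and *Krt16* (lower block, with *Krt10*) is 0.64 above its mean in high MMP 1 and 0.84 above in low MMP 2.

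Keratin filaments are tied to desmosomes, to hemidesmosomes and to plakin linker proteins, and 21 of 28 such genes had a row. None was called in limma, edgeR or DESeq2. An unadjusted p under 0.05 in limma was found for 2 of the 21, a share near the 9.96% of all genes. These were *Ppl*, which encodes periplakin (log2 difference -0.44, SE 0.15), and *Col17a1*, a hemidesmosome collagen (0.84, SE 0.29). The median difference of the 21 was -0.08 against -0.04 over all genes. Both high MMP libraries lay above both low MMP libraries for 3 of the 21 (14.3%: *Pkp1*, *Dsg3* and *Col17a1*) and below for 5 (23.8%: *Dsg2*, *Ppl*, *Evpl*, *Fbf1* and *Tchp*), shares near the 13.5% and 24.5% of all genes. The separate lists differed from these pooled shares. Of the 8 linkers with a row, 0 lay above and 4 below (50%), with a median difference of -0.22. Of the 9 desmosome genes, 2 lay above (22.2%) and 1 below (11.1%). Of the 4 hemidesmosome genes, 1 lay above (25%) and 0 below. Genes in these counts are named after their values were seen. In high MMP 1, high MMP 2, low MMP 1 and low MMP 2, *Dsg3* rests on only 10, 17, 7 and 7 reads. *Col17a1* rests on 44, 33, 22 and 16 reads in the same libraries. Among the desmosome genes with the highest values, the log2 difference was -0.02 for *Pkp4* (SE 0.16), -0.07 for *Dsp*, which encodes desmoplakin (SE 0.12), and -0.05 for *Jup*, which encodes plakoglobin (SE 0.13).

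The linkers *Plec*, *Dst* and *Macf1* did not follow the luminal keratins. *Dst*, which encodes dystonin, had 4844 normalized reads in high MMP 1, 9162 in high MMP 2, 7775 in low MMP 1 and 6094 in low MMP 2. It was thus lowest where *Krt8* was highest and highest where *Krt8* was lowest. *Macf1* had the same order (3439, 5367, 5158 and 4219), and *Plec*, which encodes plectin, was also lowest in high MMP 1 (6857, against 9200 to 9362 in the others). Their log2 differences between the groups were -0.05 (SE 0.35), -0.12 (SE 0.25) and -0.22 (SE 0.18), with adjusted p-values of 0.791 to 0.994 in limma. For the hemidesmosome, the log2 difference was -0.02 for *Itga6* (SE 0.17), -0.02 for *Cd151* (SE 0.08) and -0.22 for *Itgb4* (SE 0.15).

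Of 15 other intermediate filament genes, 11 had a row and 6 had a mean of at least 10. *Vim*, which encodes vimentin of mesenchymal cells, had 31896 normalized reads in high MMP 1, 27526 in high MMP 2, 30084 in low MMP 1 and 36343 in low MMP 2, so the line carried vimentin together with luminal keratins in every library. Its ratio to *Krt8* was 1.63, 2.09, 1.95 and 1.91. The log2 difference was -0.16 for *Vim* (SE 0.17), -0.10 for the lamin gene *Lmna* (SE 0.14) and -0.18 for *Nes*, which encodes nestin (SE 0.19), with adjusted p-values of 0.850 to 0.905 in limma. Of the 11 genes none was called in limma, edgeR or DESeq2. An unadjusted p under 0.05 in limma was found for 1 of the 11, a share near the 9.96% of all genes. This was *Nefh*, listed at 0 in both high MMP libraries and at most 3.49 in the low.

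Lists of mammary cell type markers placed the keratins in context. Of 19 luminal markers, 15 had a row, and 14 of these were higher in high than in low MMP cells for the libraries numbered 1 (44.0% of all genes), while 13 were lower for those numbered 2 (56.6% of all genes). Most genes of this list, which includes the keratins, thus had the signs of the luminal keratins. Both high MMP libraries lay above both low MMP libraries for 2 of the 15, *Esr1* and *Cldn4* (13.5% of all genes), and below for 1, *Cdh1* (24.5% of all genes). *Cdh1* had 3903 and 4726 normalized reads in the high and 5421 and 5426 in the low MMP libraries (log2 difference -0.34, SE 0.12, unadjusted p of 0.0491 and adjusted p of 0.498 in limma). Of 15 basal or myoepithelial markers, 12 had a row, 4 with both high MMP libraries above both low MMP libraries (33.3%, against 13.5% of all genes). These were *Krt14* and *Krt17*, already counted above, *Cdh3* (P-cadherin) and *Acta2*, which rests on 6, 6, 4 and 5 reads. *Cdh3* had 37.1, 37.7, 25.3 and 20.4 normalized reads in high MMP 1, high MMP 2, low MMP 1 and low MMP 2 (log2 difference 0.70, SE 0.24, adjusted p of 0.474 in limma). *Esr1*, *Cldn4*, *Cdh3* and *Acta2* are named after their values were seen. The summed basal markers were 3417 and 4190 in the high and 3967 and 3672 in the low MMP libraries, a sum that overlapped between the groups and is mostly *Itgb4* and *Krt14*.

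Among markers of other cell types, only the fibroblast marker *Pdgfra* passed an adjusted p of 0.05, in DESeq2 alone, with 319 and 363 normalized reads in the high and 536 and 589 in the low MMP libraries (log2 difference -0.72, SE 0.11, adjusted p of 0.472 in limma, 0.580 in edgeR and 0.0399 in DESeq2). Of the 5 fibroblast markers 3 had a row, with a sum of 334 and 374 in the high and 548 and 604 in the low MMP libraries. *Dcn* and *Pdgfrb* had at most 10.5. The part of *Pdgfra*-carrying cells in the keratin values was not tested.

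Finally, the genes with the most similar profile were sought by the root mean square difference of centred log2 values over the 4 libraries, among 9998 genes with a mean of at least 100. For *Krt8*, the luminal keratin with the highest mean in normalized reads, the nearest were *Pkig* (0.0248), *Uqcrh* (0.0258) and *Elf3* (0.0289), followed at place 11 by *Krt18* (0.0386), at place 97 by *Krt7* (0.0822) and at place 147 by *Krt19* (0.0900). *Krt14* was at place 8370 (0.367). For *Krt80*, the basal or stress keratin with the highest mean in normalized reads, the nearest were *Med27* (0.0202), *Slc4a1ap* (0.0203) and *Pdlim5* (0.0214), and *Krt14* was at place 464 (0.129). With 4 libraries such likeness is a description only.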

How the data were processed

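RNA of 4T1 cells sorted for high or low MMP was sequenced (2 libraries each, 75-base reads), starting from 200 ng of RNA and a stranded mRNA kit. According to the methods and processing notes, STAR was used by the authors for alignment against mouse transcripts (GRCm38/mm10) and gene-level counting (HTSeq is also named), followed by division by the library total and a filter on detection in 2 of 4 samples. Tool versions, annotation release and the treatment of reads matching several genes are not given in the sources used here. The deposited unit is thus a library-scaled signal, with columns that sum to 20000000. Division by the value of 1 read gave whole reads for 100.0% of values (tolerance 0.01 reads), which served for edgeR and DESeq2. Groups and replicate numbers came from the sample titles, and the study's supplement counts the 2 libraries of a group as independent experiments. Whether same-numbered libraries came from one sort is not stated. The table has 0 columns of other samples, and every gene was above 0 in at least 2 libraries.

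limma 3.58.1 (R 4.3.3, eBayes with a mean-variance trend) was fitted to log2(value + 1) over all 20197 genes, two-sided, with Benjamini-Hochberg adjustment and a threshold of 0.05. A fold change on this scale understates that of genes with low values. Identifiers were matched to GENCODE M21 (GRCm38) for 19993 genes. The alternatives were DESeq2 1.42.0 and edgeR's quasi-likelihood test (4.0.16) on recovered reads, other pseudocounts, a filter, other scalings, a replicate block and leaving out each library. The keratins and the lists were chosen with earlier results of these data known. Named genes are the 10 keratins, the 3 most abundant genes of each related list, a few defining cell type markers, and the 3 genes nearest in profile to the luminal and to the basal or stress keratin with the most normalized reads (not per kilobase). Genes outside this rule are named where they make up a count of 5 or fewer or stand out in a list, and were chosen after their values were seen. Promoter windows are from RefSeq (GRCm38.p6).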

Additional observations from a re-analysis of the deposited data

How the results depend on the processing

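*Krt14*, *Krt17* and *Krt80* kept a higher mean in high MMP cells under the 14 alternatives other than crossed numbers, with log2 differences of 0.24 to 0.40, 0.32 to 0.60 and 0.35 to 0.49 and adjusted p-values of 0.382 to 0.999, 0.393 to 1 and 0.181 to 0.928. For *Krt14*, *Krt17* and *Krt80*, both high MMP values lay above both low MMP values. Leaving out a library, adding a block or changing the pseudocount therefore could not reverse their signs. The luminal keratins changed sign when single libraries were left out, with ranges of -0.24 to 0.32 for *Krt7*, -0.38 to 0.19 for *Krt8*, -0.36 to 0.19 for *Krt18* and -0.19 to 0.25 for *Krt19*. Leaving out either high MMP library gave the extremes of each range. After quantile normalization *Krt7* was at -0.005. The luminal sum ranged from -0.33 to 0.23 without single libraries, the basal or stress sum from 0.34 to 0.41 and the log2 ratio from -0.70 to -0.15, and median-of-ratios rescaling moved the basal or stress sum to 0.42. In limma, no gene was called with any single library left out, and the lone sample of a group was then assumed to vary like the others.

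With the replicate number as a block, limma again called 0 genes and edgeR called 106, none of them a keratin of the list. DESeq2 with no block called 118. Same-numbered libraries deviated in opposite directions (correlation of deviations across genes of -0.421 at a mean of at least 10), and the labels name no shared sort, so the libraries were taken to share only a number. Whether numbers were exchanged in one group cannot be told from the labels, and every same-numbered difference depends on them. With crossed numbers as the block, chosen after seeing the data, limma called 0 and edgeR 733 genes, 2 of them keratins of the list (*Krt14* and *Krt80*). In the limma test as reported, the smallest adjusted p over all genes was 0.472. *Krt17* rests on fewer than 100 reads per library.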
